A study of Mus musculus with 12 samples.

Results

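The core circadian clock was described here through the liver RNA of its 10 genes: the activators Clock, Npas2 and Arntl, the repressors Per1, Per2, Per3, Cry1 and Cry2, and the nuclear receptors Nr1d1 and Nr1d2. They were matched by gene symbol among 50600 annotated genes, and their coordinates below are the files' own, in mm10. All 10 were found in every library and all 10 were among the 15219 genes with enough counts to be tested. Polyadenylated RNA came from snap-frozen livers of Rosa26-LSL-dCas9-p300 mice, a strain with a conditional fusion of nuclease-dead Cas9 to the histone acetyltransferase p300. In such an allele a stop cassette has to be removed by Cre recombinase before the fusion is made. The source of Cre is not given in the sources used here, and neither are the gRNA sequences or the sex of the animals. Mice of about 8 weeks received PBS, or 1e+12 viral genomes of AAV per animal by tail vein, loaded with a control or a Pdx1-directed gRNA, and livers were collected 2 weeks later. Each of the 3 groups had 4 libraries, so the groups are PBS, control gRNA and Pdx1 gRNA, all on the same conditional allele. Titles of the PBS and control gRNA libraries end in (2), which the Pdx1 gRNA titles lack, and its meaning is not given. Whatever it marks cannot be told apart from group in the comparisons with Pdx1 gRNA. The labels do not say that each library is a separate mouse, so every p-value refers to the spread among libraries as labelled, which may be technical.

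In the clock, ARNTL (also called BMAL1) pairs with CLOCK or NPAS2, binds E-box DNA and switches on the Per, Cry and Nr1d genes. PER and CRY proteins return to the nucleus and block that pair, while NR1D1 and NR1D2 (REV-ERB alpha and beta) bind ROR elements and repress Arntl, Clock and Npas2. In mouse liver the RNA of Arntl, Npas2 and, with a smaller swing, Clock therefore runs opposite in daily phase to that of Per and Nr1d, with Cry1 in between. The hour of collection is not given in the sources used here, so hour and group cannot be told apart.

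The short DNA motifs through which these genes act on each other were read in the 250 bases before each annotated start. RefSeq windows of build GRCm38.p6 were present for 9 of the 10 genes, 13 windows in all, and 5 windows with a match are printed because they show the E-box (CACGTG), the E-prime box (CACGTT, read as AACGTG on the other strand) and the D-box (TTANGTAA). Capitals mark the matches, and each sequence runs 5′ to 3′ on the strand of its gene.
Per1, chr11:69098699-69098948, plus strand: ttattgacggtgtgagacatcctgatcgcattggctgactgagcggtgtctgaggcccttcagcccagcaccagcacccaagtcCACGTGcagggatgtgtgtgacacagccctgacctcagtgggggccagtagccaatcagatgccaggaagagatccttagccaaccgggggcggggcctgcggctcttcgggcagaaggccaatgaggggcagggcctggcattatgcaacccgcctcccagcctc
Per3, chr4:151044666-151044915, minus strand: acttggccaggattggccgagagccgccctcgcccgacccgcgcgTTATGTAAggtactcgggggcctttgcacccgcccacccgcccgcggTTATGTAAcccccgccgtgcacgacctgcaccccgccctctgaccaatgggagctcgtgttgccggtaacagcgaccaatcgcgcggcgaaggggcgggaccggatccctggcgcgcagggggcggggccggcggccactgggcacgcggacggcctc
Cry1, chr10:85185055-85185304, minus strand: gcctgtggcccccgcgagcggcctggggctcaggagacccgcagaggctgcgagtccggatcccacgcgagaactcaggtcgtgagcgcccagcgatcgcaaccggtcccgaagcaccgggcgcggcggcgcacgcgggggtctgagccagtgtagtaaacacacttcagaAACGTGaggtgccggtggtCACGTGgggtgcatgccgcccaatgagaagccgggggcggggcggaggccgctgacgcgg
Cry2, chr2:92434070-92434319, minus strand: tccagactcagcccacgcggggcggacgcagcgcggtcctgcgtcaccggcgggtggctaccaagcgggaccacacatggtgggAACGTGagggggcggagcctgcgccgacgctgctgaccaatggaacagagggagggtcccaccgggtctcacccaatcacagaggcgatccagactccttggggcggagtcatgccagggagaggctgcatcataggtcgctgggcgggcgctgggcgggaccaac
Nr1d1, chr11:98775378-98775627, minus strand: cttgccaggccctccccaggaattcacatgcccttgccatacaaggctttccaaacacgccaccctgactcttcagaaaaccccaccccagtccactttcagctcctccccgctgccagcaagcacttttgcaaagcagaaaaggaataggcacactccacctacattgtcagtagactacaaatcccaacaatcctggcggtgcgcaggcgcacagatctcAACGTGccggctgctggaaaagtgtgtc

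Positions are counted back from the start of transcription, so that -1 is the last base before it. The E-box lay at -166 to -161 in the printed Per1 window and at -60 to -55 in the Cry1 window. Per1 had 2 windows, and the one not printed had no match. The printed one, from 69098699, lies inside the gene as annotated for the counts (69095217 to 69109960). Cry1 also held an E-prime box at -79 to -74. The E-prime box stood at -166 to -161 in Cry2 and at -28 to -23 in Nr1d1. Per3 held the D-box, the site of the output factors DBP, TEF and HLF, at -205 to -198 and again at -158 to -151. Among 32851 windows of the same length, on both strands, 6.02% held the E-box, 3.85% the E-prime box and 2.06% the D-box. The ROR element (TAGGTCA, in 2.23% of windows) and the cAMP element (TGACGTCA, in 1.55%) had no match in the 13 windows. These matches describe letters in a short window and are not evidence of binding.

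Assigned counts ran from 11824767 to 17870498 per PBS library, from 16963079 to 22008046 per control gRNA library and from 13531769 to 18063529 per Pdx1 gRNA library. Pdx1, the targeted gene, had 0 counts in every PBS library, at most 2 in a control gRNA library, and 26, 32, 54 and 256 in the Pdx1 gRNA libraries. PBS libraries 2 and 3 stood apart by the X-linked Xist, at 2.61 and 3.64 CPM (counts scaled to a common library total) against 692 to 1347 in the other 10, and by the Y-linked Ddx3y, at 80.8 and 70.0 CPM against at most 0.187. Clock gene changes and list counts against PBS are therefore also given without them. In bulk tissue, fewer cells of a type and less RNA per cell cannot be told apart.

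Levels per kilobase of exon differed widely between the clock genes, in CPM scaled by TMM (trimmed mean of M-values) factors. Nr1d1 was highest in all 3 groups, at 38.7 ± 9.55 CPM per kb after PBS (SD, n = 4), followed by Nr1d2 at 26.2 ± 2.27. The repressors Per1, Per2, Cry2 and Per3 came next, with means of 15.0, 9.60, 8.84 and 6.72 CPM per kb after PBS, and each overlapped its neighbour in this order in every group. Clock and Cry1 followed at 3.71 and 3.28 CPM per kb, overlapping after PBS and after Pdx1 gRNA but not after control gRNA. Arntl, at 0.597 ± 0.281, and Npas2, at 0.1002 ± 0.0187 CPM per kb, were lowest, and neither overlapped its neighbours in any group. Nr1d1 therefore exceeded Arntl per kb by 40.5 to 186 times in the PBS libraries, 19.7 to 60.3 times after control gRNA and 31.9 to 147 times after Pdx1 gRNA.

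**Figure D1:**
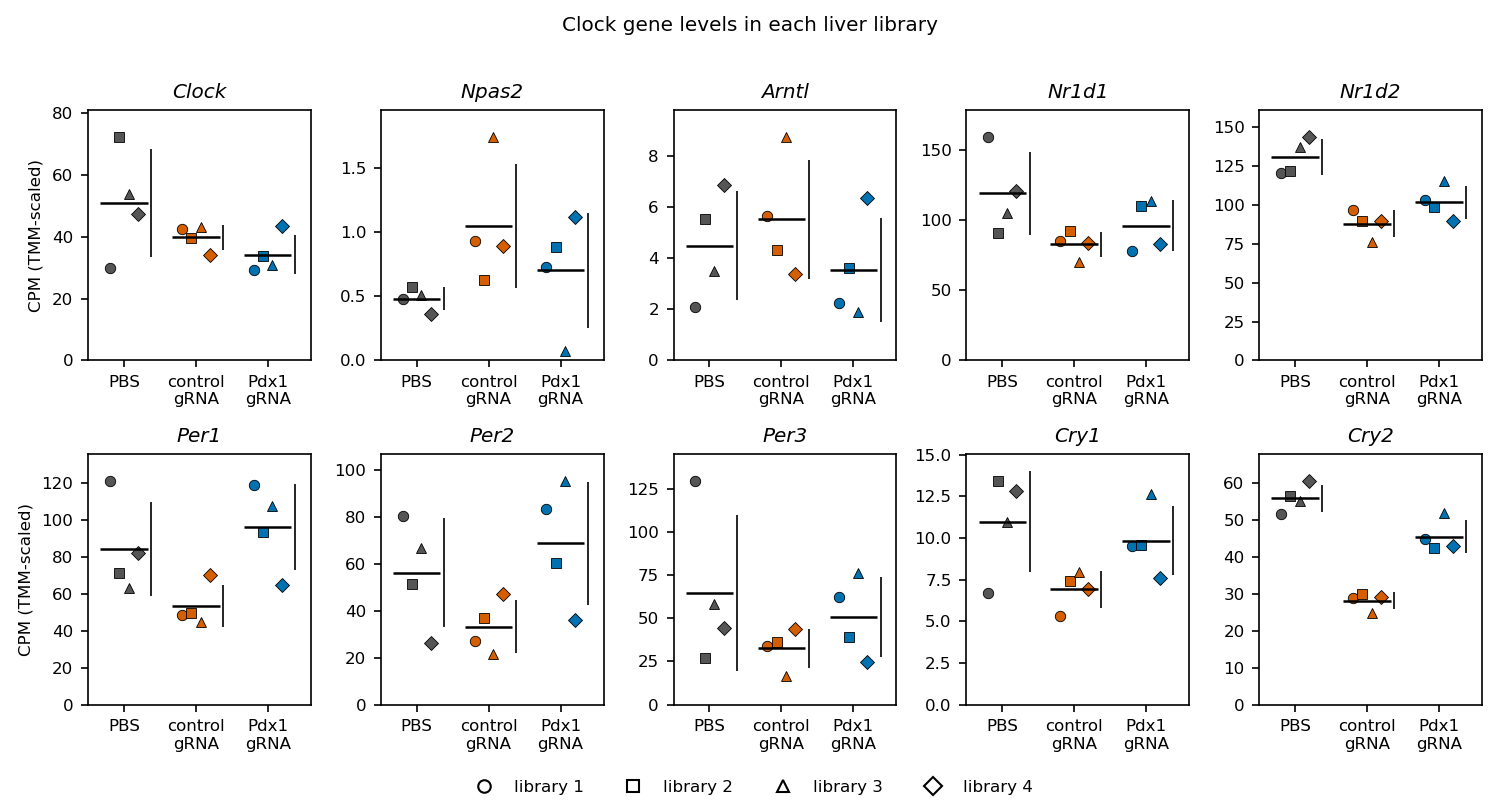
CPM, scaled by TMM factors, of each clock gene in each library, by group, with a horizontal line at the group mean and a vertical line for 1 SD on each side (n = 4); symbols give the library number, which links no libraries across groups. For Cry2 the 4 control gRNA libraries lie between 24.8 and 29.9 CPM, below all 8 others, whereas Arntl, Per2 and Per3 spread widely within each group.

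After control gRNA, 5 of the 10 clock genes fell against PBS and 0 rose: Per1, Cry1, Cry2, Nr1d1 and Nr1d2. All 5 were on the repressor side, to which all members but Clock, Npas2 and Arntl belong. Over all genes tested in this comparison, 32.1% were called at an adjusted p under 0.05, 15.8% as lower and 16.3% as higher. The median log2 fold change was -0.62 over the clock genes and -0.01 over all genes, and 8 of 10 clock genes had a negative value. With upper-quartile factors 61.8% of all calls were higher, and with library sizes alone 80.6%, against 50.9% with TMM. Library sizes alone moved the median of all genes by 0.35, and the clock genes' median lay 0.60 below it, against 0.61 with TMM. The count of 5 itself came with 4887 of 15219 genes called. It was 2 with upper-quartile factors (4855 of 15219 genes called) and 1 with library sizes alone (5496 of 15219). It was 2 with no filter (4010 of 30338) and 2 with limma-voom (4676 of 15219). It was also 2 without control gRNA library 1 (3578 of 15457), 2 (3993 of 15523) or 3 (3445 of 15485). It was 4 without PBS libraries 2 and 3, with a median of -0.66, where 14.0% of all genes were called.

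Cry2 (ENSMUSG00000068742.11, chr2:92403646-92434043, minus strand) encodes a cryptochrome that blocks the activator pair and had the smallest p of the clock genes. It measured 51.6, 56.4, 55.02 and 60.5 CPM in PBS libraries 1 to 4 and 28.9, 29.9, 24.8 and 29.0 CPM in control gRNA libraries 1 to 4. Every control gRNA library lay below every PBS library. Cry2 fell by 0.99 on the log2 scale (SE 0.11, adjusted p = 0.00021, edgeR's quasi-likelihood test with Benjamini-Hochberg adjustment), a fold of 0.504. It was called in all 21 alternative analyses, with a log2 fold change of -1.02 without PBS libraries 2 and 3. The other cryptochrome gene, Cry1 (ENSMUSG00000020038.10, chr10:85131700-85185064, minus strand), measured 6.71, 13.4, 10.96 and 12.8 CPM after PBS and 5.33, 7.41, 7.94 and 6.93 CPM after control gRNA. The groups overlapped only through PBS library 1, and Cry1 fell by 0.67 (SE 0.24, adjusted p = 0.0463, same test). The call was lost without PBS libraries 2 and 3, where the log2 fold change was -0.52, and without any single library of the 8 compared other than PBS library 1.

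Nr1d2 (ENSMUSG00000021775.10, chr14:18204054-18239127, minus strand), which encodes REV-ERB beta, was the other clock gene whose control gRNA libraries all lay below the PBS libraries. Its levels were 120.6, 121.8, 137.3 and 143.5 CPM after PBS and 96.6, 89.5, 76.1 and 89.4 CPM after control gRNA. It fell by 0.57 (SE 0.13, adjusted p = 0.00590, edgeR's quasi-likelihood test with Benjamini-Hochberg adjustment), and the call was lost only with library sizes alone. The value was -0.61 without PBS libraries 2 and 3 (adjusted p = 0.0318, same test). Nr1d1 (ENSMUSG00000020889.11, chr11:98767932-98775333, minus strand) encodes REV-ERB alpha, a repressor of Arntl, and measured 159, 91.2, 105.1 and 120.9 CPM after PBS and 85.0, 92.3, 70.4 and 83.4 CPM after control gRNA. PBS library 1 was the highest and control gRNA library 2 reached above PBS library 2, so the groups overlapped. Nr1d1 fell by 0.53 (SE 0.19, adjusted p = 0.0480, same test), with values of -0.36 without PBS library 1 and -0.78 without PBS libraries 2 and 3 (adjusted p = 0.0284). That call was lost without any single library of the 8 compared other than PBS library 2. Exons of Nr1d1 share 263 bases with Thra, a thyroid hormone receptor gene on the opposite strand, which is 8.55% of the Nr1d1 exons, and the counting did not use strand. Thra stood at 50.5 CPM in PBS library 1 and at 23.9 to 26.0 CPM in the other PBS libraries, so both genes were high in that library.

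Of the Per genes, whose proteins pair with CRY, only Per1 (ENSMUSG00000020893.17, chr11:69095217-69109960, plus strand) passed the test. It measured 121.2, 71.4, 63.4 and 82.3 CPM after PBS and 48.8, 49.9, 44.9 and 70.5 CPM after control gRNA. Control gRNA library 4 overlapped PBS library 3. Per1 fell by 0.66 (SE 0.24, adjusted p = 0.0473, edgeR's quasi-likelihood test with Benjamini-Hochberg adjustment), with values of -0.44 without PBS library 1 and -0.95 without PBS libraries 2 and 3 (adjusted p = 0.0338). That call was lost without any single library of the 8 compared other than PBS library 3 and control gRNA library 4. Per2 (ENSMUSG00000055866.9, chr1:91415982-91459324, minus strand) had a larger estimate, -0.76 ± 0.36 (SE), and did not pass (adjusted p = 0.125, same test). Its values were 80.5, 51.4, 66.7 and 26.3 CPM after PBS and 27.3, 36.9, 21.7 and 47.1 CPM after control gRNA. Per2 spread so far that PBS library 4 lay below 3 of the control gRNA libraries. Without that library Per2 was called as lower (-0.996, adjusted p = 0.0401, same test), where 4295 of all 15649 genes tested were called. Without PBS libraries 2 and 3 Per2 was not called (-0.70, adjusted p = 0.305, same test). The log2 fold change of Per3 (ENSMUSG00000028957.12, chr4:151003652-151044665, minus strand) was -0.995 ± 0.472 (adjusted p = 0.124, same test), with 129.4, 26.7, 58.1 and 44.1 CPM after PBS against 33.7, 36.0, 16.5 and 43.7 CPM after control gRNA. PBS library 1 was higher than any other library, and PBS library 2 lay inside the control gRNA range. The Per3 value was -0.41 without PBS library 1 (adjusted p = 0.457, same test) and -1.44 without PBS libraries 2 and 3 (adjusted p = 0.0714).

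None of the activators passed the test, and whether they differed from the repressors in their change was not tested. Arntl (ENSMUSG00000055116.8, chr7:113207465-113314126, plus strand), the shared partner of CLOCK and NPAS2, measured 2.10, 5.51, 3.48 and 6.87 CPM after PBS and 5.63, 4.33, 8.73 and 3.38 CPM after control gRNA. Its ranges overlapped, and its log2 fold change was 0.30 ± 0.45 (adjusted p = 0.641, edgeR's quasi-likelihood test with Benjamini-Hochberg adjustment). Npas2 (ENSMUSG00000026077.15, chr1:39193731-39363236, plus strand), the stand-in for CLOCK, had 5 to 8 counts in each PBS library and 12 to 42 in each control gRNA library, or 0.480, 0.570, 0.512 and 0.358 CPM against 0.933, 0.626, 1.74 and 0.887. All control gRNA libraries lay above all PBS libraries, but at these few counts the log2 fold change of 1.13 ± 0.55 did not pass (adjusted p = 0.133, same test). The groups did not overlap for 3 of the 10 clock genes, 2 lower and 1 higher, and for 28.8% of all genes tested, 12.3% lower and 16.5% higher. Clock (ENSMUSG00000029238.11, chr5:76209868-76304792, minus strand) measured 30.0, 72.3, 53.8 and 47.4 CPM after PBS and 42.5, 39.7, 43.1 and 34.1 CPM after control gRNA, with a log2 fold change of -0.35 ± 0.22 (adjusted p = 0.244, same test). The value depended on which PBS libraries entered. Without PBS library 1 it was -0.54 and Clock was called as lower (adjusted p = 0.0223, same test), where 6875 of all 15444 genes tested were called. Without PBS libraries 2 and 3 it was 0.016 (adjusted p = 0.968, same test). In that fit Arntl had 0.28 (adjusted p = 0.772) and Npas2 1.29 (adjusted p = 0.260).

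**Figure D2:**
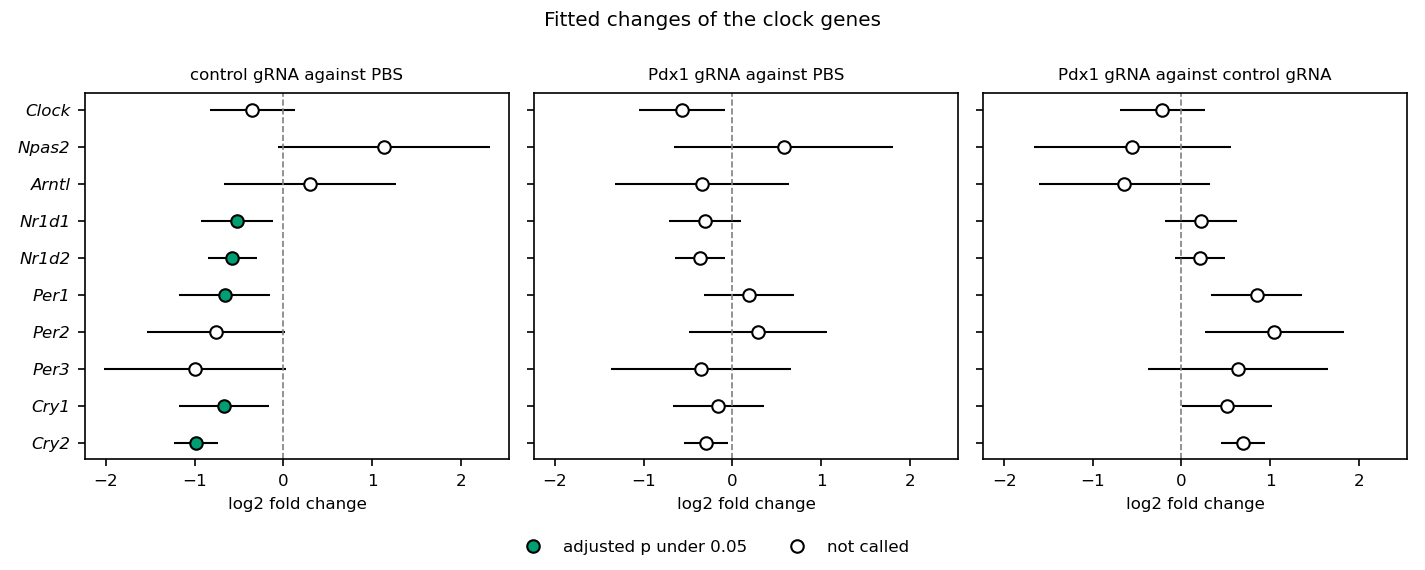
Log2 fold change of each clock gene with its 95% confidence interval in the 3 comparisons, filled where the adjusted p was under 0.05. The 5 filled points all belong to control gRNA against PBS and lie below 0, while in Pdx1 gRNA against control gRNA the interval of Cry2, Per1, Per2 and Cry1 lies above 0 with none of them called.

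Other genes around the clock were read from lists of known regulators and outputs. Of 23 regulators, 1 rose and 6 fell after control gRNA against PBS, with a median log2 fold change of -0.20. That is 30.4% of the list called, near the 32.1% of all genes. Csnk1e, a kinase that phosphorylates PER, rose by 1.28 (SE 0.30, adjusted p = 0.00713, edgeR's quasi-likelihood test with Benjamini-Hochberg adjustment), and Rora, Kmt2a, Prkaa2 and Ep300 were among those that fell. Of 9 output genes of the clock, 3 fell and 0 rose, with a median of -0.13, and the 33.3% called was also near the share of all genes. Hlf (-1.04 ± 0.22, adjusted p = 0.00485), Tef (-0.92 ± 0.27, adjusted p = 0.0219) and the E-box repressor Bhlhe40 (-0.94 ± 0.28, adjusted p = 0.0210) were those that fell. Dbp, whose RNA is among the strongest daily rhythms in liver, had a log2 fold change of -0.50 ± 0.34 and did not pass (adjusted p = 0.283). Without PBS libraries 2 and 3, 2 regulators (Kmt2a among them) and 1 output gene (Tef) were called, all as lower. In that fit 14.0% of all genes were called.

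Lists of genes that respond to feeding, glucocorticoids and temperature were read in the same comparison, where 32.1% of all genes were called, and their part in the clock genes' values was not tested. Of 11 genes of feeding and fasting, 6 (54.5%) fell and 0 rose, led by Srebf1, a regulator of lipid synthesis (-2.33 ± 0.37, adjusted p = 0.000949, edgeR), and the gluconeogenic G6pc (-2.12 ± 0.38, adjusted p = 0.00193) and Pck1 (-1.55 ± 0.36, adjusted p = 0.00677). Their summed level was 9082 to 10916 CPM after PBS and 2600 to 4357 CPM after control gRNA. Of 8 glucocorticoid-responsive genes 3 (37.5%) were called, in both directions: Sgk1 rose (2.66 ± 0.51, adjusted p = 0.00266, edgeR) while Tsc22d3 (-1.34 ± 0.27, adjusted p = 0.00362) and the hepatocyte enzyme gene Tat (-1.13 ± 0.32, adjusted p = 0.0180) fell. Of 8 genes that respond to temperature 2 (25.0%) were called: the chaperone gene Hsp90aa1 (1.00 ± 0.26, adjusted p = 0.0117, edgeR) and the cold-inducible Rbm3 (0.76 ± 0.21, adjusted p = 0.0152) rose, and 0 fell. Cirbp, another cold-inducible gene, was not called (-0.38 ± 0.22, adjusted p = 0.201). With PBS libraries 2 and 3 left out, 14.0% of all genes were called. Then 5 feeding and fasting genes were called as lower, Srebf1, G6pc and Pck1 among them. Of the glucocorticoid genes 1 was called as higher and 2 as lower. These were Sgk1, Tsc22d3 and Fkbp5, so Tat lost its call and Fkbp5 gained one. Of the temperature genes 0 were called.

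Markers of liver cell types were read beside the clock genes. In control gRNA against PBS 32.1% of all genes were called, 15.8% as lower and 16.3% as higher. The 33.3% called of the T and NK cell and of the sinusoidal endothelial markers was near that share. The hepatocyte markers were abundant in every library, with sums of 78983 to 114509 CPM in PBS libraries, 48655 to 66961 CPM in control gRNA libraries and 47422 to 99553 CPM in Pdx1 gRNA libraries, and 4 of 6 fell after control gRNA against PBS. Of the T and NK cell markers 2 of 6 rose, with sums of 1.90 to 7.61 CPM after PBS and 7.87 to 13.3 after control gRNA. Of the cholangiocyte markers 3 of 5 rose, from sums of 24.3 to 70.0 to sums of 58.9 to 405.3 CPM. Of the macrophage markers 1 of 6 rose (105.9 to 450.4 against 130.9 to 505.5 CPM summed), 2 of 6 sinusoidal endothelial markers fell (142.4 to 403.7 against 87.2 to 171.3) and 1 of 7 stellate markers fell (321.4 to 467.3 against 248.1 to 740.3). None of 4 B cell markers (2.76 to 11.9 against 3.84 to 14.7) or of 3 tested neutrophil markers was called. The sums over all 5 neutrophil markers were 3.18 to 12.5 against 7.98 to 13.04 CPM. No marker was at 0 throughout PBS or control gRNA. Without PBS libraries 2 and 3 the endothelial gene Stab2, as lower, was the 1 marker called of all these lists, where 14.0% of all genes were. The part of cell makeup in the clock genes' values was not tested.

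Against PBS, the Pdx1 gRNA group had 0 of 10 clock genes called, where 22.1% of all genes tested were called, 10.4% as lower and 11.7% as higher. With the unadjusted p, 3 of 10 clock genes and 35.8% of all genes were under 0.05. The comparison shares its PBS libraries with the one above. Nr1d2 came closest, at 102.8, 98.5, 115.5 and 89.7 CPM after Pdx1 gRNA, all below the 120.6 CPM of the lowest PBS library. Its log2 fold change was -0.36 ± 0.13 (adjusted p = 0.0594, edgeR's quasi-likelihood test with Benjamini-Hochberg adjustment), and it was 1 of 10 clock genes without overlap in a comparison where 21.4% of all genes had none (8.74% lower, 12.7% higher). Cry2 measured 44.8, 42.4, 51.9 and 42.8 CPM, and only Pdx1 gRNA library 3 reached the lowest PBS value (-0.30 ± 0.11, adjusted p = 0.0783, same test). Clock measured 29.2, 33.7, 30.8 and 43.5 CPM, which gave -0.57 ± 0.22 on the log2 scale (adjusted p = 0.0872, same test). Without PBS library 1 these 3 genes were called as lower, where 5421 of all 15444 genes tested were called. DESeq2 called Cry2 and Nr1d2, where it called 4199 of 15219 genes. Without PBS libraries 2 and 3 none of the 10 clock genes was called, where 7.90% of all genes were. Clock then had -0.19 (adjusted p = 0.602, edgeR), Cry2 -0.32 (adjusted p = 0.185) and Nr1d2 -0.39 (adjusted p = 0.144). With a covariate for those libraries Clock had -0.17. The other 7 clock genes had estimates between -0.36 (Per3) and 0.58 (Npas2), with adjusted p from 0.254 to 0.666. Of these, Per1 had -0.094 and Per3 -0.80 without PBS libraries 2 and 3, and Per3 had 0.23 without PBS library 1.

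Among the surrounding lists, Pdx1 gRNA against PBS gave 2 higher and 2 lower of 23 regulators, or 17.4% called against 22.1% of all genes. Csnk1e (1.00 ± 0.30, adjusted p = 0.0319, edgeR) and Timeless (0.83 ± 0.25, adjusted p = 0.0299) rose, and the histone methyltransferase gene Kmt2a (-0.55 ± 0.11, adjusted p = 0.00596) was among those that fell. Wee1, a cell cycle kinase gene under E-box control, was the 1 called of 9 output genes and rose by 0.96 (SE 0.18, adjusted p = 0.00344). Of the feeding and fasting genes 0 rose and 4 fell, of the glucocorticoid genes 1 rose and 1 fell, and of the temperature genes 1 rose and 0 fell. Of the markers, 1 of 6 hepatocyte and 3 of 6 sinusoidal endothelial genes fell and none of any list rose, while Ly6g, a neutrophil marker, was at 0 throughout Pdx1 gRNA. Without PBS libraries 2 and 3, 7.90% of all genes were called. In that fit 1 regulator (Kmt2a, lower) and 1 output gene (Wee1, higher) were called. So were 2 feeding and fasting genes (G6pc and Ppargc1a, lower), 2 glucocorticoid genes (Mt1 and Mt2, lower) and 0 temperature genes. Mt1 and Mt2 were not called with all libraries. Sgk1 and Tsc22d3, the glucocorticoid genes called as higher and as lower with all libraries, were no longer called. Of the markers 4 were called without PBS libraries 2 and 3 (Stab2, Pecam1, Dcn and S100a9, all lower).

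Between the viral groups, Pdx1 gRNA against control gRNA, 0 of 10 clock genes were called, as were 0% of all 15219 genes, so edgeR's quasi-likelihood test called none in the whole table. At an unadjusted p under 0.05 it gave 4 of the clock genes and 918 of all genes, or 6.03%. Cry2 had the smallest p in the whole table (4.04e-05, adjusted p = 0.444, same test), at 44.8, 42.4, 51.9 and 42.8 CPM after Pdx1 gRNA against 28.9, 29.9, 24.8 and 29.0 after control gRNA. The groups did not overlap, as for 6.65% of all genes tested (3.48% higher, 3.17% lower), and the log2 fold change was 0.69 ± 0.11, with a 95% confidence interval from 0.45 to 0.94. Among 21 alternatives, DESeq2 alone called it (adjusted p = 1.64e-05), and DESeq2 called 14 genes in the whole table. The estimate stayed between 0.61 and 0.74 over those alternatives. In level, Cry2 therefore stood lowest after control gRNA, at 28.2 ± 2.29 CPM, then 45.5 ± 4.41 after Pdx1 gRNA and 55.9 ± 3.65 after PBS (SD, n = 4).

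Per1 and Per2 had the next largest positive differences between the viral groups for their error. Per1 measured 119.1, 93.5, 108.0 and 64.7 CPM after Pdx1 gRNA, and only library 4 lay below the highest control gRNA library, at 70.5 CPM. Its log2 fold change was 0.85 ± 0.24 (adjusted p = 0.809, edgeR's quasi-likelihood test with Benjamini-Hochberg adjustment). Per2 measured 83.3, 60.2, 95.2 and 36.0 CPM, again with library 4 inside the control gRNA range, and gave 1.05 ± 0.36 on the log2 scale (adjusted p = 0.809, same test). Cry1 measured 9.53, 9.58, 12.6 and 7.62 CPM, with a difference of 0.51 ± 0.23 on the log2 scale (adjusted p = 0.809, same test). Pdx1 gRNA library 4 was also the lowest of its group for Per3, at 24.4 CPM against 62.3, 38.9 and 76.3 CPM. For Arntl it was the highest, at 6.35 CPM against 2.23, 3.61 and 1.89 CPM. The remaining members had adjusted p from 0.844 to 0.896, and for Nr1d1 (78.2, 110.1, 113.4 and 82.8 CPM after Pdx1 gRNA) the 95% interval of the difference ran from -0.19 to 0.62. Npas2 had 14, 12, 1 and 22 counts after Pdx1 gRNA, and its interval ran from -1.67 to 0.56.

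The median log2 fold change of the clock genes between the viral groups was 0.36, against -0.01 over all genes, with 7 of 10 positive. Of the output genes, 0 of 9 were called, all 9 had positive estimates and the median was 0.51. Wee1 (0.58 ± 0.18), the D-box repressor gene Nfil3 (0.45 ± 0.15) and Bhlhe40 (0.57 ± 0.27) had the smallest p of these, each with an adjusted p of 0.809 (edgeR), and Dbp had 0.62 ± 0.34 (adjusted p = 0.832). Of the 23 regulators 0 were called (median 0.09), with Timeless at 0.64 ± 0.24 and Btrc, a ligase gene that acts on PER, at 0.22 ± 0.11 (each adjusted p = 0.809). No gene of the other lists was called, with medians of 0.29 for glucocorticoid response (Mt2, a metallothionein gene, -1.56 ± 0.94), 0.27 for feeding and fasting (Pnpla3, a lipase gene, 2.37 ± 1.14) and -0.11 for temperature response (the chaperone gene Hspa8, 0.43 ± 0.19).

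Markers of cell types between the viral groups had 0 called, with estimates that ran 1 way within several lists. All 6 hepatocyte markers were positive (median 0.41). All 6 T and NK cell markers (median -0.81), all 5 cholangiocyte markers (-0.83), all 6 macrophage markers (-0.62), all 6 sinusoidal endothelial markers (-0.29) and all 4 B cell markers (-0.33) were negative, as were 6 of 7 stellate markers (-0.49). The 3 tested neutrophil markers were lower without overlap (-1.56), as were 3.17% of all genes tested. The sums over all 5 neutrophil markers were 3.63 to 5.53 CPM after Pdx1 gRNA and 7.98 to 13.04 CPM after control gRNA. The other sums after Pdx1 gRNA were 2.57 to 8.60 CPM for T and NK cells, 46.0 to 103.3 for cholangiocytes, 122.2 to 342.1 for macrophages, 74.4 to 145.5 for sinusoidal endothelium, 158.3 to 311.1 for stellate cells and 4.42 to 8.44 for B cells. Their part in the clock genes' values was not tested.

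Within the groups, the clock genes differed among themselves in how far libraries of the same treatment spread. The pooled within-group SD of log2 CPM was 0.12 for Cry2 and 0.14 for Nr1d2, lower than in all but 2.63% and 5.61% of tested genes. It was 0.61 for Per2, 0.69 for Arntl, 0.78 for Per3 and 0.78 for Npas2, at percentiles 79.9, 85.8, 89.7 and 90.0 of all tested genes. Clock (0.35), Per1 (0.36), Cry1 (0.34) and Nr1d1 (0.27) lay near or below the median of all genes, 0.36. The genes with the widest spread thus included those that the comparisons of group means could resolve least.

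This spread was ordered. Within each group, the library order of Arntl was the exact reverse of that of Per2: the PBS libraries ran 4, 2, 3, 1 from the highest Arntl to the lowest, and 1, 3, 2, 4 for Per2. The control gRNA libraries ran 3, 1, 2, 4 for Arntl, and the Pdx1 gRNA libraries 4, 2, 1, 3, each reversed for Per2. As deviations of log2 CPM from the group mean, Arntl and Per2 had Pearson r = -0.95 over 12 libraries (exact permutation of libraries within groups, 13824 arrangements, two-sided p = 7.23e-05, the smallest they can give, adjusted p = 0.00326 over 45 gene pairs). Spearman's rho was -0.94 (exact permutation p = 0.000217, adjusted p = 0.00488). Without PBS library 1 and Pdx1 gRNA library 4, the libraries farthest from the median of Arntl, r was -0.92, and over the 8 viral libraries it was -0.99. Without PBS libraries 2 and 3 it was also -0.99. Arntl over Per2 per kb thus ran from 0.0203 to 0.204 within PBS, from 0.0559 to 0.313 within control gRNA and from 0.0154 to 0.137 within Pdx1 gRNA, and on the log2 scale each of these ranges was wider than the distance between any of the group means.

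**Figure D3:**
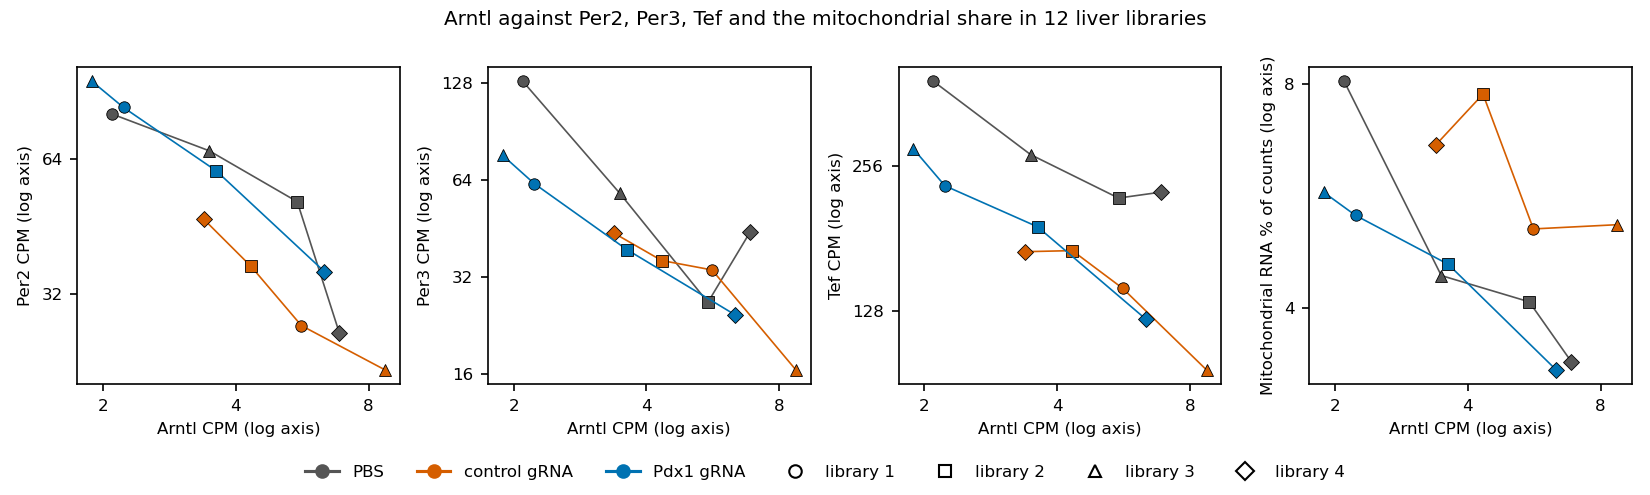
Arntl CPM on the horizontal axis against Per2, Per3 and Tef CPM and the percent of counts from mitochondrial genes, on log axes; colours give the group, symbols the library number, and lines join the libraries of a group in order of Arntl. Per2 falls at every step as Arntl rises in all 3 groups, with r = -0.95 after group means are removed.

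Other pairs followed the division between activators and repressors in part. Of the 45 pairs, 7 had an adjusted p under 0.05 for Pearson's r (exact permutation within groups), and 6 of these were negative pairs of an activator with a repressor. They were Arntl with Per2 and with Per3 (r = -0.93, adjusted p = 0.0130), Clock with Per1 (r = -0.86, adjusted p = 0.0319) and Per3 (r = -0.88, adjusted p = 0.0282), and Npas2 with Cry2 (r = -0.86, adjusted p = 0.0319) and Nr1d2 (r = -0.76, adjusted p = 0.0432). The positive pair was Cry2 with Nr1d2 (r = 0.85, adjusted p = 0.0432), which fell to 0.59 without control gRNA library 3 and Pdx1 gRNA library 3, so it rests on those libraries. For the other 5 pairs beside Arntl with Per2, r without the 2 farthest libraries lay between -0.99 and -0.72. By Spearman's rho, the 3 pairs among Npas2, Cry2 and Nr1d2 had adjusted p of 0.0539 to 0.0597. The pair with the clearest link in the textbook loop, Arntl with Nr1d1, had r = -0.54 (adjusted p = 0.323). By the same permutation, Cry1 had r = 0.43 with Clock (adjusted p = 0.517), 0.19 with Arntl (adjusted p = 0.653) and -0.37 with Npas2 (adjusted p = 0.425). The share of all gene pairs that would pass was not computed, so the 7 of 45 cannot be called particular to the clock.

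**Figure D4:**
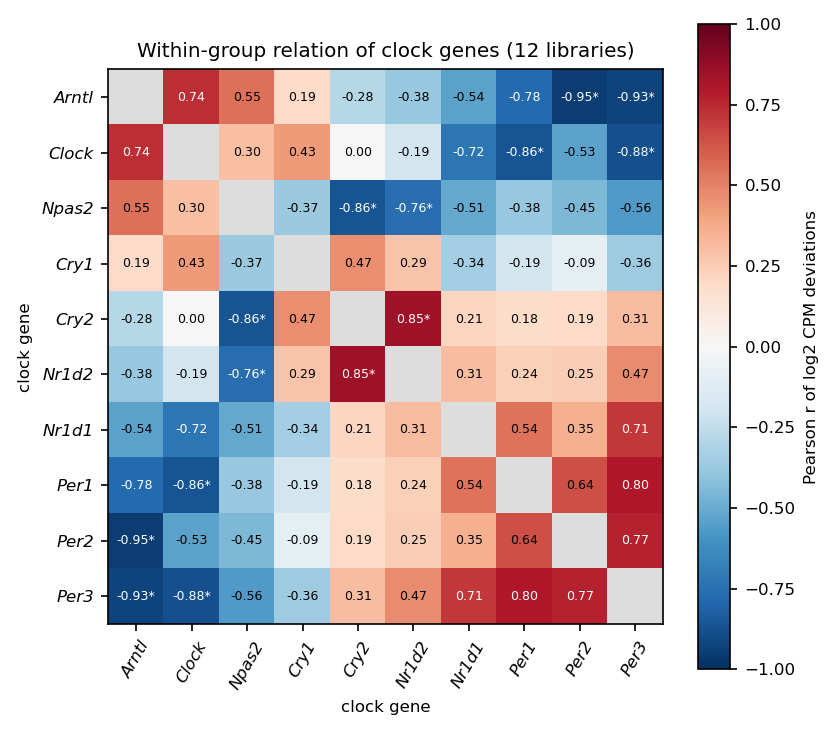
Pearson r between each pair of clock genes over 12 libraries, after the group mean of log2 CPM was removed from each library; red is positive, blue negative, and an asterisk marks an adjusted p under 0.05 over 45 pairs. The Arntl row is darkest blue at Per2 (-0.95) and Per3 (-0.93).

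Of 9 clock output genes, 5 ran against Arntl within groups and 4 did not pass. The share of all genes that would pass against Arntl was not computed, so this count cannot be called particular to output genes. In a family of 23 measures set against Arntl by the same permutation, Tef had r = -0.96 (exact permutation, adjusted p = 0.00374), Dbp -0.93 (adjusted p = 0.00374), Usp2, a deubiquitinase gene, -0.89 (adjusted p = 0.00532), Ciart, a repressor of the activator pair, -0.86 (adjusted p = 0.00374) and Bhlhe41, an E-box repressor, -0.74 (adjusted p = 0.0241). Hlf (r = -0.48), Wee1 (-0.55), Nfil3 (0.52) and Bhlhe40 (-0.29) did not pass. Library order was the exact reverse of that of Arntl in 2 of 3 groups for Bhlhe41 and in 1 of 3 for each of Tef, Dbp, Usp2 and Ciart. Among those that did not pass, it was so in 2 of 3 groups for Hlf and in 1 of 3 for Wee1. Tef ran from 382.8 CPM in PBS library 1 down to 219.6 in PBS library 2, from 171.0 in control gRNA library 2 to 96.9 in library 3, and from 277.8 in Pdx1 gRNA library 3 to 123.5 in library 4. The mitochondrial share of counts moved with Arntl too (r = -0.90, exact permutation adjusted p = 0.00374): it was 8.07% in PBS library 1 and 3.39% in PBS library 4, and 5.72% in Pdx1 gRNA library 3 and 3.305% in library 4. The order of the mitochondrial share was the exact reverse of that of Arntl in 2 of 3 groups, and its part in the ordering was not tested. Summed levels of the feeding and fasting genes (r = -0.65, adjusted p = 0.0942), macrophage markers (0.68, adjusted p = 0.0942) and hepatocyte markers (-0.51, adjusted p = 0.283) did not pass. Assigned counts (r = 0.08) and TMM factors (0.37) had adjusted p of 0.957 and 0.439.

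Within libraries, the log2 ratio of Arntl to Nr1d1 per kb, an index of the activator against its repressor, was -7.54, -5.34, -6.21 and -5.43 in PBS libraries 1 to 4. It was -5.21, -5.70, -4.30 and -5.91 after control gRNA and -6.42, -6.22, -7.20 and -4.99 after Pdx1 gRNA. The groups overlapped, and PBS library 1 and Pdx1 gRNA library 3 were lowest. Those libraries had the lowest Arntl and the highest Per2 and Per3 of their groups.

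The genes whose within-group pattern was most like that of a clock gene were sought over 12 libraries among 13552 genes whose mean level reached 1 CPM. For Arntl they were Spg21 (r = 0.97), Pitpna (0.97) and Tgm2, a transglutaminase gene (0.95). For Nr1d1 they were Gmeb2, Fancc and Smim27, each at 0.91. For Cry2 they were Gm9929 (0.91), Smoc1 (0.87) and Amotl2 (0.85). These values describe likeness among the libraries studied and were not tested. Exons of Cry2 share 295 bases with D930015M05Rik (4.67% of the Cry2 exons), and those of Arntl 33 bases with Gm45355 (0.439%), both on the opposite strand. D930015M05Rik held 64, 64 and 85 counts in all after PBS, control gRNA and Pdx1 gRNA, and Gm45355 held 0, 1 and 0.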

How the data were processed

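Counts of paired-end fragments per gene were deposited, 1 file per library. Per the file headers, the authors counted with featureCounts 1.4.6-p4 on GENCODE M13, without regard to strand, with both ends mapped and no option set to count fragments that fall on several genes. Per the submitters' processing notes, Trimmomatic 0.32, STAR 2.4.1a, DESeq2 1.22.0 and R 3.5.1 were used, on GRCm38 and mm10. IDs were matched to symbols by a later GENCODE release (50376 of 50600).

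A single edgeR 4.0.16 model (R 4.3.3) held the 3 groups: filterByExpr (minimum count 10), TMM, robust quasi-likelihood test, two-sided, Benjamini-Hochberg over 15219 genes, called at an adjusted p under 0.05. There were 9 residual degrees of freedom. Within-group relations used log2 CPM (prior count 2). Alternatives were other scalings, filters and tests (DESeq2 1.42.0, limma-voom 3.58.1), a replicate block, left-out libraries, and a covariate for PBS libraries 2 and 3. The settings for Arntl with Per2, and the list counts without those libraries, were chosen after seeing the data. The permutation tests within groups, of 45 gene pairs and of 23 measures against Arntl, were not in the plan of tests. Methods were tested on simulated data. Library pairs within groups differed by a chi-square of 19.3 to 177 per degree of freedom, so none was a copy.

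Named genes were the 10 members, up to 3 of each further list with the smallest p in control gRNA against PBS and in Pdx1 gRNA against control gRNA, Dbp, genes overlapping a member, and the 3 most alike to Arntl, Nr1d1 and Cry2. A few genes within that rule are not reported here. Genes named beyond it were chosen after their values were seen. Members and lists were chosen with earlier results of these data known.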

Additional observations from a re-analysis of the deposited data

How the results depend on the processing

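The count of 5 clock genes lower after control gRNA than after PBS was 2 with upper-quartile factors, 1 with library sizes alone, 2 with no filter, 2 with limma-voom and 2 with only the 8 libraries compared. All genes called in these fits were, in that order, 4855, 5496, 4010, 4676 and 4043, against 4887 in the main fit. No filter tested 30338 genes and the 8 libraries 14778, against 15219 in the others. The count of clock genes was 4 without PBS libraries 2 and 3 and 4 with a covariate for them. The replicate numbers do not pair the libraries (5 of 12 same-number pairs correlated above 0.1, from -0.64 to 0.25, and 2 of 12 libraries correlated best with their own number), and with the replicate number as a block the count was 3. Leaving out 1 library at a time gave 2 to 4, lowest without control gRNA library 1, 2 or 3, with 3445 to 6875 of all genes called. Cry2 was called throughout, and Nr1d2 in all but library sizes alone, whereas Per1 kept its call in 9 of 21 alternatives, Nr1d1 in 8 and Cry1 in 7. Against PBS, Pdx1 gRNA gave 0 called clock genes, but 1 with DESeq2 size factors (3400 of 15219 genes called) and 1 with the stricter filter (3405 of 13979). It gave 2 with DESeq2 (4199 of 15219) and 0 to 3 with 1 library left out. Between the viral groups the count of 0 became 1 (Cry2) with DESeq2. All genes called in control gRNA against PBS, 4887, became 2258 without PBS libraries 2 and 3 and 2785 with the covariate. In Pdx1 gRNA against PBS 3370 became 2017 with only the 8 libraries, 1277 without PBS libraries 2 and 3, 1795 with the covariate and 2132 to 5421 with 1 library left out (5421 without PBS library 1, 2132 without Pdx1 gRNA library 4). Between the viral groups 0 became 14 with DESeq2, 1 with only the 8 libraries and 0 to 1 with 1 left out.

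Signs changed only for estimates that were not called. In control gRNA against PBS, Clock was 0.028 with library sizes alone, 0.016 without PBS libraries 2 and 3 and 0.042 with the covariate, and Arntl ran from -0.021 (without control gRNA library 3) to 0.592 with 1 library left out. In Pdx1 gRNA against PBS, Per1 was -0.094 without PBS libraries 2 and 3 and -0.079 with the covariate, Per3 ran from -0.622 to 0.231 (without PBS library 1) with 1 left out, and Cry1 was 0.11 with library sizes alone and 0.012 with the covariate. The relation of Arntl and Per2 within groups stayed between -0.99 and -0.92 over 7 settings added after the data were seen. The cause of these changes was not tested. Npas2 had 1 to 42 counts a library, and the stricter filter removed it.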
